A study of Mus musculus with 3 samples.

Results

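RBPJ is the DNA-binding protein through which Notch receptors reach their target genes, and this account follows Rbpj and the genes of its main cofactors in 3 populations of mouse spleen dendritic cells. The 9 genes listed were Rbpj, the coactivators Maml1, Maml2, Maml3, Ep300 and Snw1, and the corepressors Spen, Ncor1 and Kdm5a. Members were all probe sets whose single annotated gene is one of these, each kept apart, which gave 10 probe sets of 8 genes, out of 35556 probe sets and 21789 with a single gene, which cover 19938 genes. No probe set was annotated to Ncor1 alone, and it was not analysed here.

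The arrays were Affymetrix Mouse Gene 1.0 ST, and each of the 3 groups had 1 array, made from RNA pooled from 2 to 3 mice. All cells were CD11c(hi) CD11b+ spleen cells sorted after lymphoid and erythroid cells had been depleted, and all mice carried the Cx3cr1-GFP reporter. The control groups were Esam(hi) GFP(lo) and Esam(lo) GFP(hi) cells of mice described in the series' design as RBPJflox/flox littermates without Cre, though the sample labels give the control strain as Cx3cr1-GFP only. The third group was Esam(lo) GFP(hi) cells of RBPJflox/flox CD11c-Cre Cx3cr1-GFP mice, in which Cre, driven by the CD11c promoter, acts in CD11c-expressing cells. Neither ages nor the floxed exons are named in the labels used here. With 1 array per group there was no replicate error and no test could be made, and precision is limited by there being so few arrays.

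When Notch is cut at the membrane, its intracellular part enters the nucleus and joins RBPJ on DNA. Mastermind proteins, encoded by the Maml genes, bind the groove formed by Notch and RBPJ and bring in the histone acetyltransferase p300, the product of Ep300. Without Notch, RBPJ can instead bind corepressors such as SPEN, which recruits the NCoR complex with its histone deacetylases, and KDM5A, which removes methyl groups from lysine 4 of histone H3. Notch2 signalling is known to be needed for Esam(hi) CD11b+ dendritic cells of the spleen.

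The letters that RBPJ is known to read are shown first, for its own gene, a corepressor gene and a textbook target. The core letters TGGGAA, or TTCCCA on the other strand, were searched in the 250 bases before each start in RefSeq's promoter table of GRCm38.p6. At least 1 match was present in 21.6% of all 32851 entries, and at least 2 were present in 2.77%. Entries were available for 7 of the 9 genes, 10 in all, and 6 of these held a match. The entries printed are Rbpj's own and that of Hes5, a textbook Notch target, each with 2 matches, and Spen's, whose match begins 8 bases before the start. Capitals mark the matches, and each sequence runs 5′ to 3′ on the gene's strand and ends just before the start.
Rbpj, chr5:53590096-53590345, plus strand: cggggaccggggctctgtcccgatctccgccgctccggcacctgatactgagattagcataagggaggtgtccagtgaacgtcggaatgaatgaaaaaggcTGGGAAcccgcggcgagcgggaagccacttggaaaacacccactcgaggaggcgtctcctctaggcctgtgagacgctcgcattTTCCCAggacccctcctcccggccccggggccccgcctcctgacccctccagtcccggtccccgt
Spen, chr4:141538598-141538847, minus strand: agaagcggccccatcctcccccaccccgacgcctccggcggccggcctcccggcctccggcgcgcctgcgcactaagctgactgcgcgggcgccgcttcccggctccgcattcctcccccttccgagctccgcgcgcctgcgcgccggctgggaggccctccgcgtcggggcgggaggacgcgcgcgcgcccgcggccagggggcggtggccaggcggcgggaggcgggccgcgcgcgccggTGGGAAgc
Hes5, chr4:154960673-154960922, plus strand: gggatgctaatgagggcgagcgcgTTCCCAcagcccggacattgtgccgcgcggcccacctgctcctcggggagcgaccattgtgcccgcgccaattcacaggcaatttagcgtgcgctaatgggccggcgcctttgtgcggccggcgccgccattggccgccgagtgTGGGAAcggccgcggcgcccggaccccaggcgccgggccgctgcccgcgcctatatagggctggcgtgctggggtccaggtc

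In Rbpj the matches began 149 and 65 bases before the start, and in Hes5 226 and 82 bases before it. A second Rbpj start lies downstream and its window holds the nearer of the same matches again. One match each was found for Maml3, 1 of 2 Maml2 entries and 1 of 2 Ncor1 entries, and none for Maml1 or Ep300. Such matches describe the letters in these windows and were not tied to binding by any measurement here.

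The values are log2 expression values from RMA, which subtracts background, normalizes the arrays and summarises the probes of a probe set. Arrays are given throughout in the order control Esam(hi), control Esam(lo), RBPJ-null Esam(lo). A background level was set per array at the 95th percentile of 1205 probe sets for olfactory and vomeronasal receptors, genes expressed mainly in the nose, and it came to 7.16, 6.75 and 6.86. Median values over all probe sets were between 6.55 and 6.67. All 11 dendritic cell markers listed, among them Itgax, the gene for CD11c, were above background on the control Esam(hi) array. On both Esam(lo) arrays 10 of the 11 were, the exception being Esam, which marked the sort. Esam read 7.79, 6.57 and 6.12, and Itgam, the gene for CD11b, read 9.50, 10.57 and 10.79. A difference was counted where 2 arrays were at least 2-fold apart and the brighter was above background.

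Rbpj, the targeted gene, was well above background on the array labelled RBPJ-null. Its brighter probe set (10521913) read 9.85, 9.85 and 10.04. Both control arrays held the same deposited value, and the array labelled RBPJ-null was the highest, by 0.19 on the log2 scale or 1.14-fold. The other Rbpj probe set (10521911), annotated through a single sequence record and no RefSeq mRNA, read 6.11, 5.63 and 5.63 and was below background on all 3 arrays. Neither probe set was thus lower in the Esam(lo) cells labelled RBPJ-null than in those of control mice. A probe outside the floxed exons does not check the deletion, and the position of these probes relative to those exons is not known here. Transcripts of Rbpj pseudogenes, of which the gene table lists 3, could also share signal with it. The array is therefore named by its label, on which any direction taken from it depends.

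**Figure D1:**
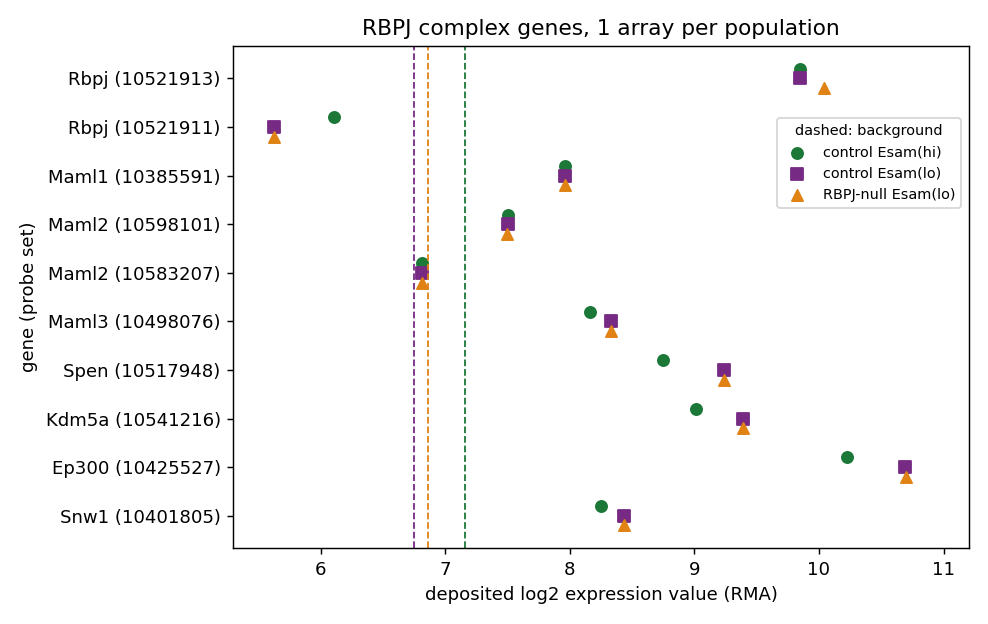
Deposited log2 values (horizontal axis) of the 10 member probe sets (vertical axis) on the 3 arrays, 1 symbol per array, with each array's background level as a dashed line. Rbpj (10521913) sits at 9.85 on both control arrays and 10.04 on the RBPJ-null array, and the Esam(lo) symbols of the cofactor genes nearly coincide.

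The Mastermind genes encode the coactivators that clamp Notch to RBPJ. Maml1 and Maml2 read nearly the same on all 3 arrays, and Maml3 read slightly lower on the control Esam(hi) array. Maml1 (10385591) had the same value, 7.96, on each array. Maml2 had 2 probe sets, and the brighter (10598101) read 7.50, 7.50 and 7.49. The dimmer Maml2 probe set (10583207) read 6.81 on all 3 arrays, which was above background on the control Esam(lo) array only. Maml3 (10498076) read 8.16, 8.33 and 8.33, so that the control Esam(hi) array was the lower by 0.17. Between the control arrays each Maml2 probe set had an exact tie, which gives no direction. Under quantile normalization their differences had opposite signs, at 0.06 (10598101) and -0.08 (10583207).

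The acetyltransferase gene Ep300 and Snw1, whose product SKIP contacts both RBPJ and Notch, were lowest on the control Esam(hi) array, as Maml3 was. Ep300 (10425527) read 10.23, 10.69 and 10.70, a difference of -0.47 between the control arrays (Esam(hi) minus Esam(lo)), or 1.38-fold. Snw1 (10401805) read 8.25, 8.43 and 8.43, a difference of -0.19. The control difference of Ep300 was negative in each of the 4 scalings applied here (-0.01 to -0.58), whereas that of Snw1 turned positive in 2 of them.

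The corepressor genes had the same shape. Spen (10517948), encoding the large scaffold that carries NCoR to RBPJ, read 8.75, 9.24 and 9.24, with the control Esam(hi) array lower by 1.40-fold (-0.49). Kdm5a (10541216), encoding the histone H3 lysine 4 demethylase, read 9.02, 9.39 and 9.39, lower by 1.29-fold (-0.37). On the array labelled RBPJ-null both genes had exactly the control Esam(lo) value.

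No member probe set was 2-fold apart between the control populations, of 9 above background on at least 1 of these arrays. Over all probe sets tested, 11.8% were (1274 of 10788), with 10.8% lower on the Esam(hi) array. This balance depended on the scaling, as quantile normalization gave 914 probe sets (201 higher, 713 lower) and removal of the level trend 702 (281 higher, 421 lower). The members' median difference was -0.17, and that of all probe sets was -0.28. On the deposited values the Esam(hi) array thus read lower for most probe sets that passed the background filter (67.4% of these). With the level trend removed their median difference was 0.03. With dim probe sets included, the Esam(hi) array had the highest median (6.67, against 6.55 and 6.56). Measured from the median of all probe sets, Spen lay at -0.21, Ep300 at -0.18 and Kdm5a at -0.09. On the same footing Snw1 lay at 0.09 and Maml3 at 0.11, and Rbpj (10521913), Maml1 and both Maml2 probe sets at 0.28. At 1.2-fold, a threshold chosen after the values were seen, 3 of the 9 (Spen, Ep300 and Kdm5a) were lower on the Esam(hi) array and none higher, where 51.1% and 11.6% of all probe sets were.

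The difference between the control arrays depended on level. Its median over all probe sets was 0 at mean levels of 7 to 7.5, -0.38 at 8 to 8.5 and -0.49 at 9.5 to 10. Spen, Ep300 and Kdm5a lay near the median of their level, whereas Rbpj, at 9.85 on both arrays, lay above it. That place of Rbpj rests on an exact tie, in which a small difference may be hidden. Between the control arrays 4 of 9 member probe sets were tied, as were 13.4% of all probe sets. With that trend removed by a smooth curve, Spen was at -0.002, Ep300 at -0.01, Kdm5a at 0.12, Maml3 at 0.21 and Snw1 at 0.22. Rbpj (10521913) was at 0.48 and Maml1 at 0.30. Removal of the trend moved the median of all probe sets by 0.31, quantile normalization moved it by 0.19, and centring each array on its median moved it by -0.11. Under quantile normalization Rbpj was at 0.32, Spen at -0.18, Ep300 at -0.19, Kdm5a at -0.04 and both Maml3 and Snw1 at 0.04. The direction between the control arrays was therefore the same in all 4 scalings for Spen and Ep300 only, and with the trend removed both were close to 0. Kdm5a turned with the trend removed, Maml3 and Snw1 turned with it and with quantile normalization, and each of the 4 tied probe sets was below 0 with centring and above 0 with the trend removed.

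**Figure D2:**
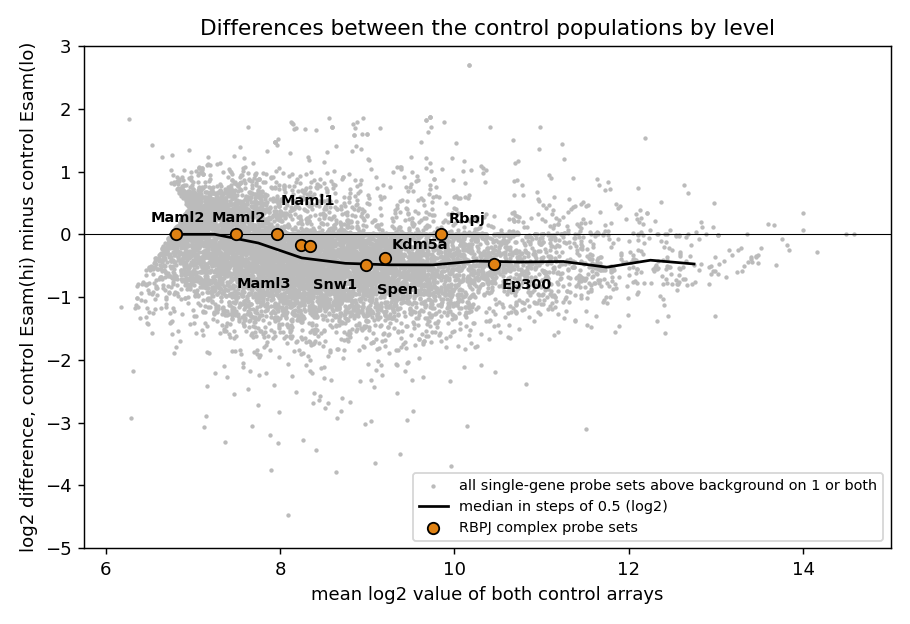
Log2 difference of the deposited values, control Esam(hi) minus control Esam(lo) (vertical axis), against the mean log2 value of both arrays (horizontal axis). Grey points are 10788 single-gene probe sets above background on at least 1 of these arrays, the line is their median in steps of 0.5, and orange points are the 9 member probe sets among them. Rbpj, an exact tie, sits at 0 where the median at its level is -0.49.

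Both Esam(lo) arrays were compared next. None of the 9 member probe sets above background was 2-fold apart, where 0.243% of all probe sets were (26 of 10680). In 6 of the 9 the deposited values were exactly equal, as they were in 40.6% of all probe sets. Such ties can arise when probes are summarised over few arrays, so that a small difference may be hidden in them. Rbpj differed by 0.19, Maml2 (10598101) by -0.01 and Ep300 by 0.003. Of all probe sets tested, 6.30% had a higher difference than Rbpj. The value for Rbpj was 0.19 with each array centred, 0.20 with quantile normalization and 0.19 with the trend removed. Across the same alternatives the other 8 lay between -0.04 and 0.008.

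Against the control Esam(hi) array, none of 8 member probe sets was 2-fold apart on the RBPJ-null array, where 14.0% of all probe sets were (1466 of 10469, of which 1319 were higher and 147 lower). With the level trend removed that count was 855 (496 higher, 359 lower). This comparison shares its arrays with the others. Spen was higher by 0.49, Ep300 by 0.47, Kdm5a by 0.37, Rbpj and Snw1 by 0.19 and Maml3 by 0.17, Maml1 was tied and Maml2 (10598101) differed by -0.01. The median over all probe sets was 0.30 and that of the members 0.19. For Rbpj this difference was negative under quantile normalization (-0.12) and after removal of the trend (-0.29). Ep300 kept a positive value in each scaling (0.009 to 0.58), while with the trend removed Spen was at -0.02, Kdm5a at -0.14, Maml3 at -0.23 and Snw1 at -0.24. Maml3 and Snw1 were at -0.07 under quantile normalization too.

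**Figure D3:**
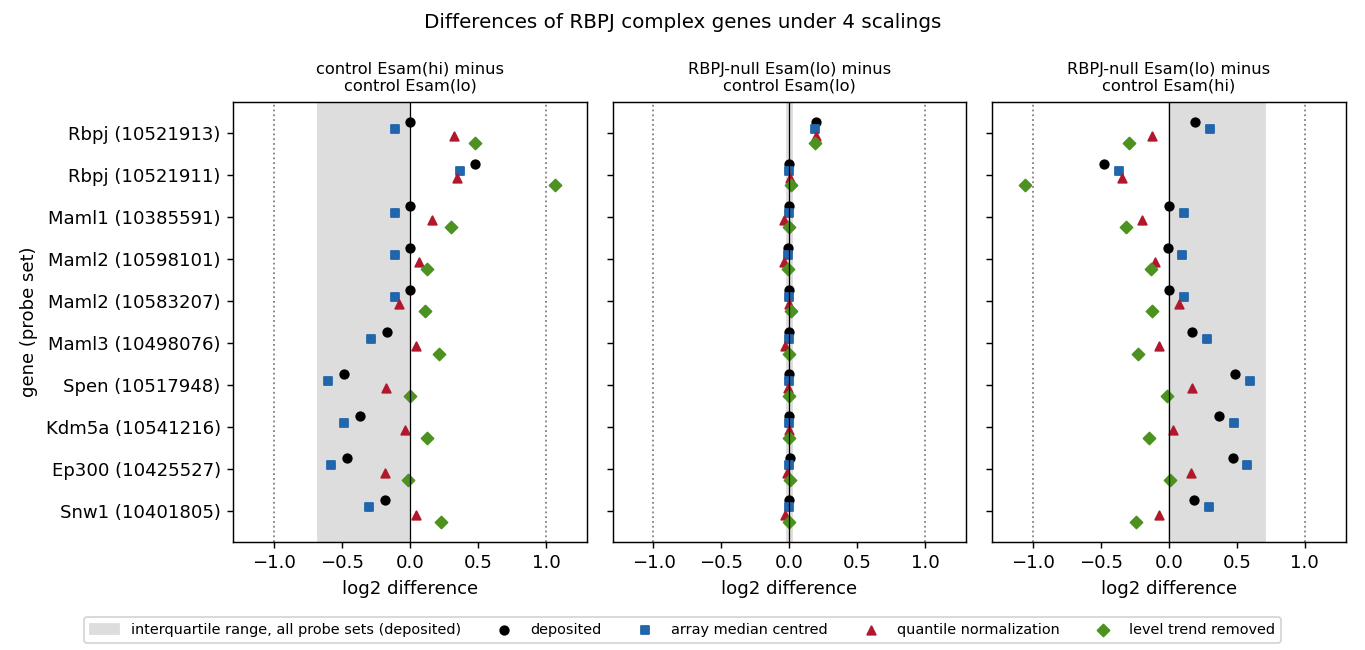
Log2 differences (horizontal axes) of the 10 member probe sets (vertical axis) in the 3 comparisons, each under 4 scalings, with the interquartile range of all probe sets on the deposited values in grey and dotted lines at 2-fold. Between the Esam(lo) arrays the scalings nearly coincide and Rbpj (10521913) sits near 0.19, whereas in the comparisons with the Esam(hi) array the scalings spread on both sides of 0. The probe set past a dotted line, Rbpj (10521911) with the trend removed, is below background on all 3 arrays.

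Over the 3 arrays together, 8 member probe sets were above background on each, as were 8833 of all probe sets. Spen, Kdm5a, Maml3 and Snw1 were lower on the control Esam(hi) array with both Esam(lo) arrays tied, an order found in 22.8% of all 8833. Ep300 had nearly the same order, with a small further step on the RBPJ-null array (25.3% of all). Rbpj had equal control values and a higher RBPJ-null value, an order found in 69 of the 8833 probe sets, Rbpj included (0.781%). The brighter Maml2 probe set (10598101) had equal control values and a lower RBPJ-null value, by a difference of only -0.008. That order was about as rare, at 79 of the 8833 (0.894%). Both orders require exactly equal control values, so these shares do not set Rbpj apart from Maml2. Maml1 was tied throughout, as were 11.3% of all.

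The genes whose 3 values followed Rbpj (10521913) most closely were found by the Euclidean distance between the values on the 3 arrays, each gene's minus its own mean. The closest 5 were Hnrnpc (distance 0.005), encoding an RNA-binding protein of nascent transcripts, Tmem120b (0.009), Gfra2 (0.02), encoding a neurturin receptor, Nostrin (0.02) and Dnmt3a (0.02), a DNA methyltransferase gene. Hnrnpc read 9.50, 9.50 and 9.68, and Dnmt3a read 9.44, 9.45 and 9.62. Within a distance of 0.1 lay 102 of 8832 probe sets, so that with 3 arrays many genes had this pattern. No other member was that close, the nearest being Maml3 at 0.15.

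Other coactivators of the complex were mostly lower on the control Esam(hi) array. This list held the p300 paralogue gene Crebbp, the acetyltransferase genes Kat2a and Kat2b, Mediator genes and histone methylation genes, and 11 of its 12 genes were on the array with 12 probe sets above background. Between the control arrays 11 were lower and 1 higher in Esam(hi) cells, with a median of -0.55, against -0.28 for all probe sets. Of all probe sets 67.4% were lower and 19.2% higher. Kat2b, Ccnc and Dpy30 were below background on the Esam(hi) array and passed the filter only through the Esam(lo) arrays. The measured values of 2 of the 12 were 2-fold lower, a share near the 10.8% of all probe sets; both were below background on the Esam(hi) array. The median was -0.19 with the trend removed, when 9 were lower. Dpy30, encoding a subunit of histone H3 lysine 4 methyltransferases, read 6.97, 8.34 and 8.60 and was at least 2.27-fold lower on the control Esam(hi) array, where it was below background. Ccnc, encoding the cyclin whose kinase phosphorylates the intracellular part of Notch, read 6.56, 7.90 and 8.04, at least 1.68-fold lower, likewise against background. Kdm6a, encoding a histone H3 lysine 27 demethylase, read 8.63, 9.42 and 9.78 and was 2.22-fold higher on the RBPJ-null than on the control Esam(hi) array, a difference of 0.64 with the trend removed. Crebbp read 10.80, 10.93 and 10.93, a smaller difference (-0.13) than its paralogue Ep300 had (-0.47), and its sign was positive under quantile normalization (0.13) and after removal of the trend (0.31).

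Other corepressor genes, among them histone deacetylases and NCoR complex subunits, were also lower on the control Esam(hi) array in 18 of 19 probe sets. Of all probe sets 67.4% were lower. The list's median was -0.71, against -0.28 for all probe sets. Sap30 was below background on the Esam(hi) array, and Tle2, the 1 that was higher there, was below background on both Esam(lo) arrays. By 2-fold 2 of the 19 were lower, a share near the 10.8% of all probe sets. With the trend removed 14 were lower and none by 2-fold, and the median was -0.26. Hdac3, the deacetylase of the NCoR complex, read 8.53, 9.66 and 9.77 and was 2.20-fold lower in Esam(hi) than in Esam(lo) control cells. Sap30, encoding a SIN3 complex subunit, read 7.11, 8.22 and 8.24, at least 2.08-fold lower. Between the Esam(lo) arrays none of 12 coactivator and none of 18 corepressor probe sets was 2-fold apart, with medians of 0.02 and 0.01. Of all probe sets 0.243% were, so that counts of 0 are usual for lists of this size.

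Paralogues of the members had a median of -0.14 between the control arrays, with 4 of 6 probe sets lower and 2 tied. Among the 6 were Crebbp, which is also in the coactivator list, and both probe sets of Rbm15b. Of all probe sets 67.4% were lower and 13.4% tied. The median of the paralogues turned positive with quantile normalization (0.11) and with the trend removed (0.25). Rbpjl, the paralogue that does not bind Notch, was below background on all 3 arrays (6.16, 6.04 and 5.82). Kdm5c read 9.32, 9.50 and 9.65, and Kdm5b read 7.38, 7.53 and 7.51.

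**Figure D4:**
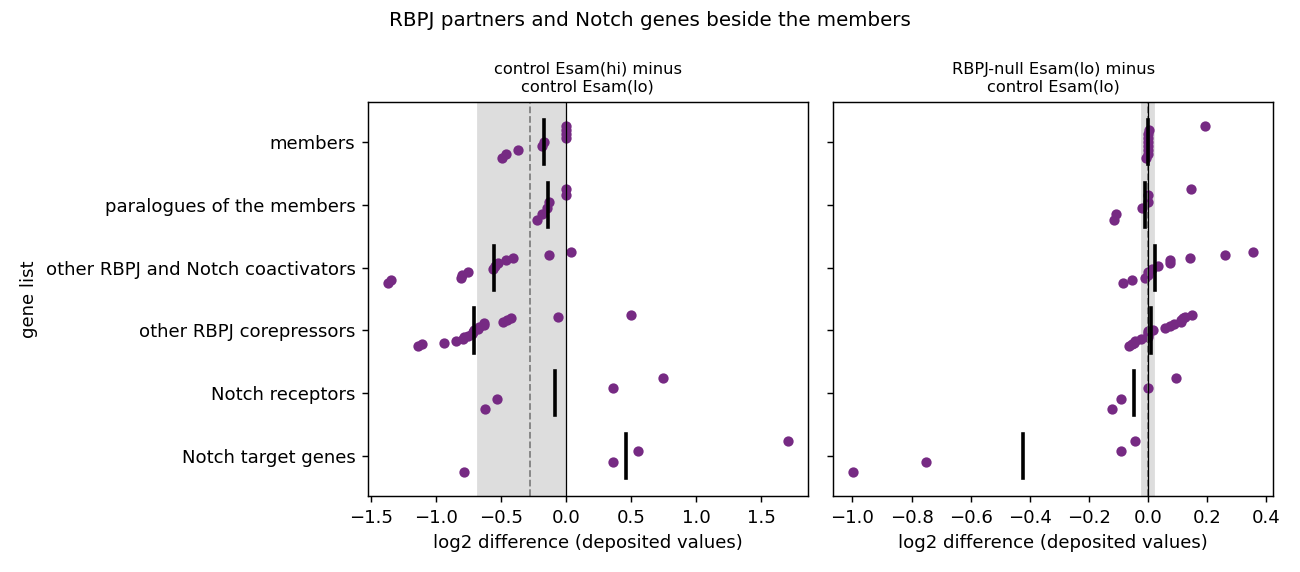
Log2 differences of the deposited values (horizontal axes) for probe sets of 6 gene lists (vertical axis), control Esam(hi) minus control Esam(lo) on the left and RBPJ-null Esam(lo) minus control Esam(lo) on the right. Each point is a probe set above background on at least 1 of the arrays compared, black bars are list medians, the dashed line is the median and the grey band the interquartile range of all probe sets. On the left the other corepressors centre on -0.71 and the members on -0.17. On the right the 4 Notch target probe sets have a median of -0.42, which lies between Hes1 (-0.75) and Notch3 (-0.09).

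Receptors and targets are given for reference. Notch2, the receptor in the series' title, read 10.87, 11.40 and 11.50, and none of the 4 receptor genes was 2-fold apart in any comparison. Of all probe sets 11.8% were between the control arrays, 0.243% between the Esam(lo) arrays and 14.0% between the RBPJ-null and control Esam(hi) arrays. Of 9 target genes 4 were above background between the control arrays. Dtx1, encoding a regulator of Notch, read 11.25, 9.55 and 8.56. Hes1, a repressor gene, read 7.87, 8.66 and 7.91, and Hes5 read 8.54, 7.99 and 7.95. All 4 targets, among them Notch3, which is also in the receptor list, had lower values in RBPJ-null than in control Esam(lo) cells. Of all probe sets 29.8% did. The differences were -0.997 for Dtx1, -0.75 for Hes1, -0.09 for Notch3 and -0.04 for Hes5. Their median was -0.42, and it was between -0.42 and -0.43 in the other scalings. Rbpj's own value was thus higher on that array and those of Dtx1 and Hes1 lower, while Notch3 and Hes5 differed little, each without replicates.

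Several lists of genes used as markers of other cells differed along the same split of the arrays. Whether such cells were in the sorted populations was not tested. Of 11 monocyte probe sets all were lower in Esam(hi) than in Esam(lo) control cells, 9 by 2-fold, though Nr4a1 differed by only -0.002. Of all probe sets 67.4% were lower, and 10.8% by 2-fold. With quantile normalization or the trend removed 10 of the 11 were lower, 8 by 2-fold, and Nr4a1 was higher (0.15 and 0.32). None of the 11 was at or below background on every array, and 8 were above it on the Esam(hi) array. Ccr2, F13a1 and Fcgr4 were not, and they passed the filter only through the Esam(lo) arrays. Cx3cr1, also in this list (8.32, 9.58 and 9.58), is the gene of the GFP reporter used in the sort, so its direction is not independent of the sort. Among the monocyte genes were Ace, Ccr2, Fn1 and Lyz2, with Lyz2 at 9.97, 13.06 and 13.20. The log2 of the list's summed level was 13.73, 14.92 and 14.88. For 10 neutrophil probe sets it was 13.16, 14.28 and 14.41, with 8 lower on the Esam(hi) array and 2, Mpo and Elane, higher. Ly6g and Retnlg were below background there. By 2-fold 6 of the 10 were lower on the Esam(hi) array, and 2 with quantile normalization or the trend removed. All 10 neutrophil probe sets were also higher on the RBPJ-null than on the control Esam(lo) array (9 under quantile normalization), where 29.6% of all probe sets were. Their differences ran from 0.01 (Lcn2) to 0.43 (Mpo), with a median of 0.19 beside Rbpj's 0.19. Their part in the value of Rbpj was not tested. For macrophage markers the log2 of the summed level was 12.03, 12.83 and 12.77, with 4 of 13 below background throughout, namely Marco, Mertk, Mrc1 and Siglec1. Of the 9 tested 8 were lower on the Esam(hi) array and 1 tied. With the trend removed 6 were lower and 3 higher. CD8+ dendritic cell markers gave 11.12, 12.34 and 12.27, with Cd8a, Itgae and Xcr1 below background. Of 6 probe sets tested 4 were lower on the Esam(hi) array and 2 higher, and with the trend removed 3 were lower and 3 higher. Plasmacytoid markers gave 10.43, 11.30 and 11.23, with Siglech and Ly6d below background. All 4 tested were lower on the Esam(hi) array, 2 by 2-fold. With the trend removed 3 were lower, none by 2-fold. T and NK cell markers gave 10.79, 11.52 and 11.50, with Cd3d, Cd3g, Ncr1 and Klrb1c below background, but of 5 tested 2 were lower on the Esam(hi) array, 2 higher and 1 tied, with a median of 0. B cell markers gave 10.97, 10.91 and 10.77, with Cd79a, Ms4a1, Pax5 and Ebf1 below background, and erythroid and platelet markers 8.94, 8.71 and 8.73, with 5 of 6 below background. Their part in the lower values of Spen, Ep300 and Kdm5a was not tested, and in sorted populations fewer cells of a type and less RNA per cell cannot be told apart.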

How the data were processed

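The authors deposited 1 log2 expression value per probe set and array, made with RMA in Affymetrix Expression Console per the submitters' processing notes; no versions are given, and the labels do not say which arrays were normalized together. Quartiles of the 3 columns differ, and whether this comes from scale or from the populations was not tested. Probe sets were named from the platform's annotation table: 21789 have 1 gene symbol, 1621 several and 12146 none. No source used here names the annotation's genome build.

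From these values log2 differences were computed with Python 3.11.15 and pandas 2.3.3, with no test, as each group has 1 array. Where the dimmer array was below background, the fold is a lower bound against that array's background. The alternatives were median centring, quantile normalization, a lowess trend (statsmodels 0.14.6, fraction 0.3), other filters and folds, and 1 probe set per gene. The scripts were tested on simulated data. Promoter letters came from RefSeq (GRCm38.p6).

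Members and lists were chosen with earlier results of these data known. Named genes were all members, up to 4 genes per other list that were 2-fold apart in any comparison, and the 5 closest to Rbpj in pattern; other genes named were chosen after their values were seen.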

Additional observations from a re-analysis of the deposited data

How the results depend on the processing

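The count of member probe sets at least 2-fold apart was 0 in each of the 3 comparisons. It stayed at 0 with arrays centred on their median, quantile normalization, the level trend removed, no filter on dim probe sets, a filter at the 75th percentile, folds of 1.5 and 3, and 1 probe set per gene. At 1.2-fold, added after seeing the data, it was 3 of 9 lower on the Esam(hi) array between the control populations (5513 of all 10788 probe sets were), 0 of 9 between the Esam(lo) arrays (659 of 10680 in either direction) and 3 of 8 higher on the RBPJ-null than on the control Esam(hi) array (5446 of 10469). Between the control arrays, the sign of the difference turned in 2 of 9 member probe sets with quantile normalization and in 3 with the trend removed, and in the comparison of the RBPJ-null with the control Esam(hi) array in 3 and 5 of 8. Between the Esam(lo) arrays no member moved by 0.1 or more on the log2 scale under any of the 3 scalings. The cause was not tested. No paired analysis was possible because each group has 1 array. Without replicates no spread is known, and signal near background, as for Maml2 (10583207), limits what can be read.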
